A study of Homo sapiens with 4 samples.

Results

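The genes examined here encode the receptors for interleukin 7 (IL-7) and interleukin 2 (IL-2), 3 Janus kinases, 2 of which (JAK1 and JAK3) these receptors use, and 3 genes that act downstream of them. They were 4 receptor genes (IL7R, IL2RA, IL2RB and IL2RG), 3 kinase genes (JAK1, JAK3 and TYK2) and 3 feedback or target genes (SOCS1, CISH and PIM1), 10 of the 19821 protein-coding genes placed on chromosomes 1 to 22 and X. Every peak of ETS1 and of RUNX1 inside these genes or within 100 kb of their RefSeq bounds was taken. The 10 windows together span 2.43 Mb and do not overlap.

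IL-7 and IL-2 are cytokines that keep developing and activated T cells alive and dividing. Each binds its own receptor chain together with the common gamma chain encoded by IL2RG, and JAK1 and JAK3, which are bound to the chains, then phosphorylate STAT5. SOCS1 and CISH encode inhibitors of this signal that are themselves induced by it, and PIM1 encodes a kinase that STAT5 induces and that promotes survival. IL7R is needed for human T-cell development, and the pathway is often activated by mutation in T-cell acute lymphoblastic leukaemia (T-ALL).

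The cells were 6T-CEM, an established human T-ALL line, with no treatment named in the labels and no sorted or engineered group. CUT&Tag, in which an antibody brings a transposase to the chromatin around its target, was done with an ETS1 antibody from Santa Cruz in 2 libraries and a RUNX1 antibody from Abcam in 2 libraries. All 4 libraries share the cell line, and no culture, passage or batch is given, so every spread over libraries may be technical. The ETS1 and RUNX1 lists held 6070 and 5611, and 25356 and 24997 peaks on chromosomes 1 to 22 and X, with a median of 54 and 51, and 75 and 71 reads or fragments at the summit. Peaks show occupancy and not expression. As a check of the cell type, RUNX1 and ETS1 were each found at a start, or at a gene end where no start is listed, of 4 of 5 T-lineage genes (CD3E, CD3D, CD7 and LCK, not CD2). At 9 genes of B, myeloid and erythroid cells RUNX1 was found at 2 and ETS1 at 0, and over all coding genes at 47.2% and 19.0%. No start is listed for 2 of the 5 (CD3E and CD7) and for 6 of the 9.

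The promoters that the results turn on are shown first. Each is the 250 bases before a RefSeq start site (GRCh38.p14), written 5′ to 3′ on the strand of the gene. Capitals mark matches, on either strand, to TGTGGT (a RUNX motif), to CCGGAAGT or its core GGAAG (ETS motifs) and to TTCNNNGAA (a STAT motif), and neighbouring matches can overlap. IL7R is shown because it had no peak, CISH for its STAT matches, PIM1 and JAK3 because both factors were present, and IL2RG because only RUNX1 was. JAK1 is shown at its outermost start, which had no peak, and at the inner start with the RUNX1 peak.
IL7R, chr5:35856641-35856890, plus strand: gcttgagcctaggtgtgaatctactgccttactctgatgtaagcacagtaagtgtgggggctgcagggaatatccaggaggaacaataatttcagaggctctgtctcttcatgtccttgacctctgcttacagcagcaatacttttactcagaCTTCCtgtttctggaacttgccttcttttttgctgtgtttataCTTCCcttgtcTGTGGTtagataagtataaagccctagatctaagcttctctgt
CISH, chr3:50611775-50612024, minus strand: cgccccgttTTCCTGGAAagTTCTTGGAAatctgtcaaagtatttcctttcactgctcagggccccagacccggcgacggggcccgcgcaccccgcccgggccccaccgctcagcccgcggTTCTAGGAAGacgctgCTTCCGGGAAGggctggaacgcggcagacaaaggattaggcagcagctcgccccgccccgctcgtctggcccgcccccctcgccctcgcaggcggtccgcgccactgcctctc
PIM1, chr6:37169902-37170151, plus strand: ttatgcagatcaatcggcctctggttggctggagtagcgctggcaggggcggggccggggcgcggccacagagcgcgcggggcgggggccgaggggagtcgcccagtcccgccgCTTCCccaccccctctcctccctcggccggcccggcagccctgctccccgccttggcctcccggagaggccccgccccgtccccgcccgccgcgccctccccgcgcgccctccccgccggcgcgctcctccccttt
JAK3, chr19:17847983-17848232, minus strand: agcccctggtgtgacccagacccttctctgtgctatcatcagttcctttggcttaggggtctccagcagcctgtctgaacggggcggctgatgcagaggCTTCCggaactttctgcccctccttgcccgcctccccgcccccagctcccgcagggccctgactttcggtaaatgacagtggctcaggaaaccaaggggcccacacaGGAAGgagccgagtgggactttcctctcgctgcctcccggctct
IL2RG, chrX:71111578-71111827, minus strand: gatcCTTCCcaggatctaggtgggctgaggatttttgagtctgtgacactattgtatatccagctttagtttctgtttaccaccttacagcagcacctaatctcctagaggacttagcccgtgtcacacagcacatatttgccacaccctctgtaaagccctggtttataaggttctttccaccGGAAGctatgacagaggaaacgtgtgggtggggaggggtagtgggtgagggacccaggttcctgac
JAK1 outermost start, chr1:65067747-65067996, minus strand: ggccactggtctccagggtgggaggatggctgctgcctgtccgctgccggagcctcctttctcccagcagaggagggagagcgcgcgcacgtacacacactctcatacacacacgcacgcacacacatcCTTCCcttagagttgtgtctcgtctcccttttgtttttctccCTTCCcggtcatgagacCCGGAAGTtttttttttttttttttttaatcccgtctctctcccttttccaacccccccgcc
JAK1 inner start, chr1:64966550-64966799, minus strand: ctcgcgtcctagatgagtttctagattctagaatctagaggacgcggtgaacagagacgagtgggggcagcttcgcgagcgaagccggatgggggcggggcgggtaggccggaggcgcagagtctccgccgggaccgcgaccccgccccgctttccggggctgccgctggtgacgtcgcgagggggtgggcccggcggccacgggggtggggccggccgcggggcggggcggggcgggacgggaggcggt

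The RUNX motif as searched here, TGTGGT, was found in the promoter of a single member. Variants such as TGCGGT were not searched, and the IL2RA promoter holds that one on the opposite strand. Of the 11 start sites listed for 9 of the genes, only that of IL7R had TGTGGT in this window, at positions -43 to -38 from the start, and no peak of either factor was called there. A match is a run of letters and not a measured site. No motif was searched outside this window. The midpoint of the RUNX1 summits lay inside the gene, and so outside the window, at IL2RG (145 bp), JAK1 (61 bp) and JAK3 (54 bp). At CISH it lay 0.285 kb before the start, also outside the window. At SOCS1 and TYK2 it was near the far edge (254 and 250 bp before the start), and at PIM1 within the window (185 bp). Whether TGTGGT occurs at the summits outside the window was not tested. IL2RB has no entry in the promoter table. Over all 22132 coding-gene promoters in the table, 9.36% held TGTGGT, and 7.67% of the 9380 that touched a RUNX1 region did. CCGGAAGT was found once, at the outermost JAK1 start, where no peak was called. It was present in 4.41% of all promoters and in 9.80% of the 3818 that touched an ETS1 region. GGAAG alone is too common to mark a promoter, since 67.2% of all promoters held it.

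CISH had 4 matches to the STAT motif in this window, at positions -241 to -104 from its start. This number was reached by 4 of the 22132 promoters, which belong to 3 genes, whereas 5.92% held at least 1. The match nearest the start shares bases with 2 GGAAG matches. STAT binding was not measured in these libraries.

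RUNX1 peaks were found around all 10 genes and ETS1 peaks around 7. In the windows, the ETS1 libraries had 31 and 28 peaks and the RUNX1 libraries 97 and 95 (29.5 ± 2.12 and 96 ± 1.41, SD, n = 2). That is 0.511% and 0.499% of all ETS1 peaks and 0.383% and 0.380% of all RUNX1 peaks. Both RUNX1 libraries were above both ETS1 libraries, and the ratio of the means was 3.25. The exact permutation test over libraries gave p = 0.333 (two-sided), the smallest p that 2 against 2 libraries allow. The direction depends on how many peaks each list holds: with each library reduced to its 5611 strongest peaks the ratio was 0.825.

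For each antibody, touching or overlapping peaks from its 2 libraries were joined, and the joined region counted only if both libraries contributed. This left 91 RUNX1 regions of 22802 and 26 ETS1 regions of 5055 in the windows. Among all coding genes, 82.7% had a RUNX1 region and 49.7% an ETS1 region in the gene or within 100 kb, beside 10 of 10 and 7 of 10 here. Both backgrounds are high, so these counts say little about the 10 genes in particular. IL7R, IL2RA and JAK1 had no ETS1 region.

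The number of regions differed widely between the genes. IL7R had 1 RUNX1 region, JAK1 2, PIM1 5, IL2RG and CISH 6 each, IL2RA 10, SOCS1 12, IL2RB and JAK3 15 each and TYK2 19. The median of the 10 genes was 8, against 3 over all coding genes (quartiles 1 and 7). For ETS1 the count was 1 at SOCS1 and PIM1, 2 at CISH, 3 at IL2RG, 4 at JAK3, 6 at IL2RB and 9 at TYK2, with a median of 1.5 against 0. Of all coding genes, 96.2% had fewer RUNX1 regions than TYK2 and 17.3% fewer than IL7R. The counts moved with the number of neighbouring genes: the TYK2 window holds 10 other coding genes and that of JAK3 7, against 3 for IL7R and 2 for JAK1. The part of gene density in these counts was not tested.

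**Figure D1:**
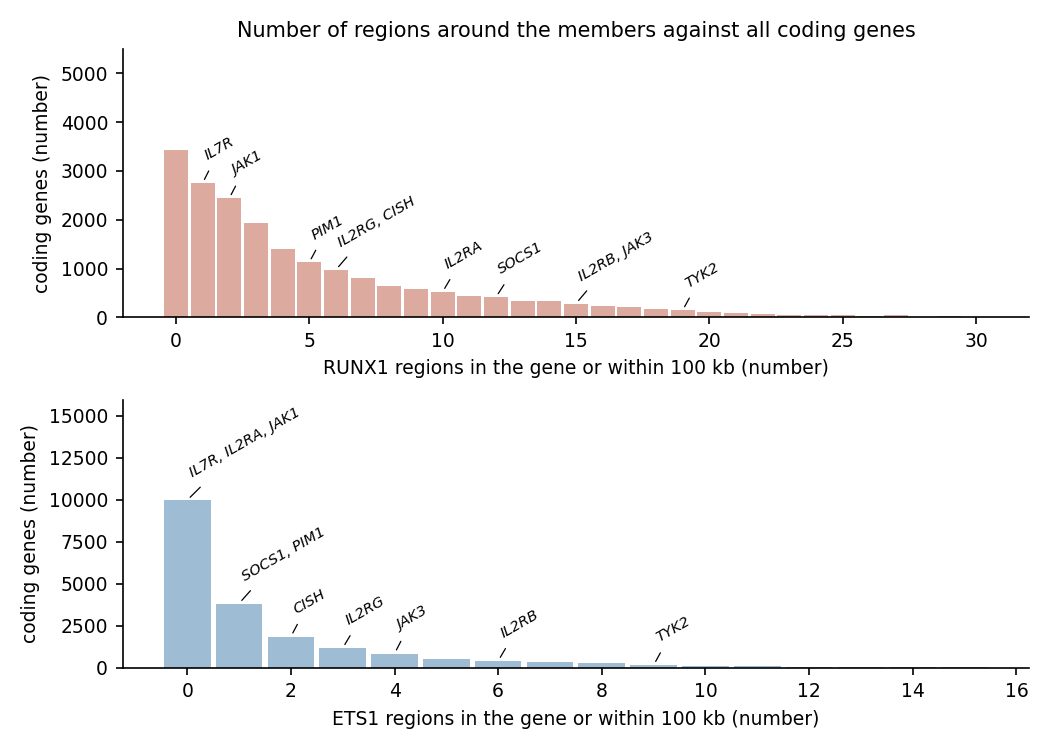
Number of RUNX1 regions (upper panel) and ETS1 regions (lower panel) in each gene or within 100 kb of it. Bars are all 19821 coding genes (drawn up to 30 and 15 regions), and the names mark the 10 genes, from IL7R with 1 RUNX1 region to TYK2 with 19.

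Only some of these regions lay on the 10 genes themselves. A region was placed at a start site if the midpoint of its summits in both libraries lay within 1000 bp of one. Distances between ETS1 and RUNX1 summits are also between such midpoints, and the summits of single libraries can lie farther apart. For genes without a listed start, such as IL2RB, both ends of the gene stood in. Of the 91 RUNX1 regions, 7 were at the start of one of the 10 genes, 8 elsewhere inside them, 28 at the start of another coding gene, 19 inside another coding gene and 29 outside coding genes. The 26 ETS1 regions fell 3, 2, 15, 4 and 2 into the same places. ETS1 summits were more often at start sites, 64.5% and 64.3% of them in the 2 libraries against 38.1% and 37.9% of the RUNX1 summits. The difference of 26.4 percentage points was larger than the spread between libraries (exact permutation test over libraries, two-sided p = 0.333, the smallest possible). Over all peaks the shares were 60.1% and 61.4% for ETS1 and 34.7% and 34.4% for RUNX1.

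**Figure D2:**
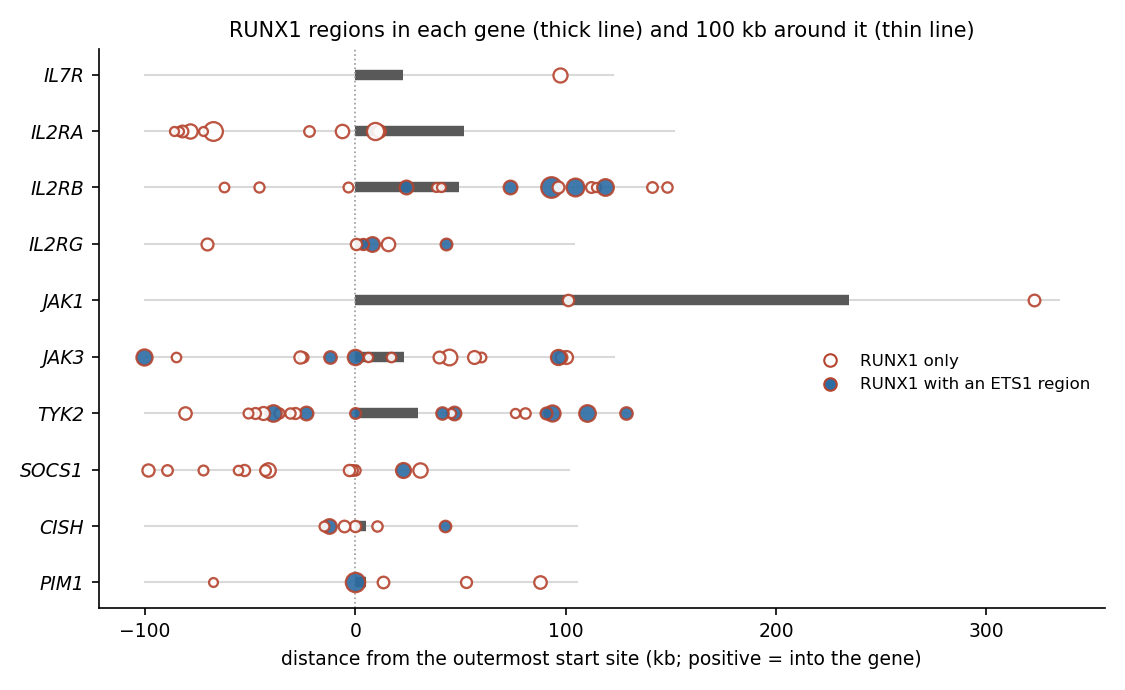
RUNX1 regions (circles) by distance (kb) from the outermost start site of each gene, positive into the gene. IL2RB, whose strand is not in the table used, is drawn from its lower-coordinate end, with positive values toward higher coordinates. Circle size grows with the RUNX1 fold and filled circles overlap an ETS1 region. IL7R has 1 region and JAK1, a gene of 234518 bp, has 2, while TYK2 has 19 and JAK3 15.

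The start sites are described by class, with no test of a difference between classes. Of the genes with a listed start, a RUNX1 region touched the start window of 1 of 3 receptor genes (IL2RG). It did so at 3 of 3 kinase genes and 3 of 3 feedback genes, 7 of 9 in all. With IL2RB read at its outer ends, where no region lay, this was 7 of 10, against 47.2% of all coding genes. For ETS1 the counts were 0 of 3, 2 of 3 (JAK3 and TYK2) and 1 of 3 (PIM1), 3 of 9 in all. With IL2RB read in the same way this was 3 of 10, against 19.0%. Both factors were at the start of 18.7% of coding genes and, among genes with RUNX1 there, ETS1 was at 39.5%, beside 3 of 7 here. Among the coding genes with a listed start site, the shares for RUNX1 and ETS1 were 48.9% and 20.3%. IL2RB has no listed start, so of the receptor genes only IL7R, IL2RA and IL2RG could be read at a known start. A region with both factors lies inside IL2RB, and whether it is at a start could not be read. It is not in these start counts, which therefore do not show that IL2RB lacks either factor at its start. Elsewhere inside the genes lay 6 of the 32 RUNX1 regions of the receptor windows, 2 of 36 for kinases and 0 of 23 for feedback genes. The feedback genes are short, from 1788 bp (SOCS1) to 5286 bp (CISH), IL2RA and IL2RB are 51679 and 49281 bp long, and JAK1, the longest at 234518 bp, had no RUNX1 region inside it away from its starts.

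**Figure D3:**
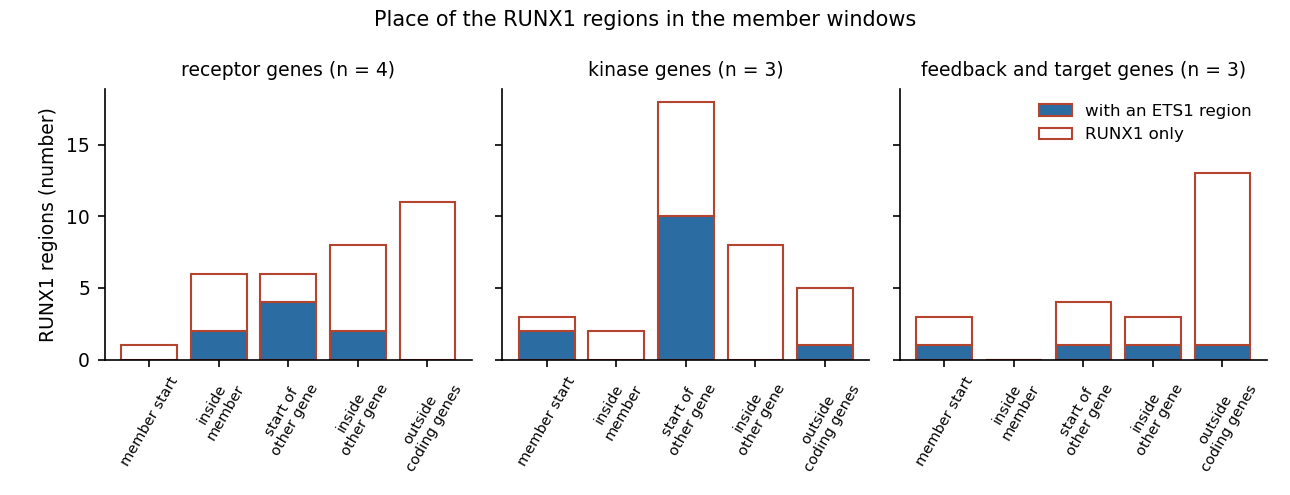
Number of RUNX1 regions by place, for the windows of the receptor genes, the kinase genes and the feedback and target genes. Filled parts overlap an ETS1 region. The tallest bar of the kinase panel is at starts of other coding genes (18, 10 of them with ETS1), and that of the feedback panel outside coding genes (13, 1 with ETS1).

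IL7R, which encodes the alpha chain of the IL-7 receptor, stood in a window almost without peaks. Its only RUNX1 region was at chr5:35954030-35954596, inside the neighbouring gene UGT3A1 and 97.5 kb from the IL7R start. The fold over IgG there was 16.8 and 17.5 in the 2 libraries, which is in the upper part of all RUNX1 regions (82.1% had a lower fold). No peak of either factor lay in IL7R itself or at its start in any of the 4 libraries. The promoter printed above has TGTGGT, and GGAAG on the opposite strand at 2 positions.

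IL2RA, which encodes the high-affinity alpha chain CD25, had strong RUNX1 regions inside and upstream of the gene but none at its start, and no ETS1 peak. The strongest over the gene was at chr10:6052521-6053282, 9.45 kb into the gene, with a RUNX1 fold of 29.4 and 30.6 (30.01 ± 0.863, SD, n = 2). A second, 11.3 kb into the gene, had 8.93 and 15.9 and had the largest SD of fold of the RUNX1 regions in the windows (4.95). Upstream regions lay 6.19 kb (14.9 and 14.6) and 67.8 kb (37.7 and 38.5) from the start, the latter above 96.0% of all RUNX1 regions and nearer to PFKFB3. Enhancers inside and around IL2RA are known to respond to T-cell stimulation.

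At IL2RB, the beta chain shared by the IL-2 and IL-15 receptors, both factors met inside the gene. The region at chr22:37149251-37150406 had a RUNX1 fold of 18.5 and 13.3 and an ETS1 fold of 4.84 and 4.31, with summits 34 bp apart. It lies 24.1 kb from the lower-coordinate end of the gene. Whether it is a transcript start could not be read from the tables used here. No region of either factor lay within 1000 bp of an outer end of IL2RB, and 2 further RUNX1 regions inside the gene were weak (3.53 and 3.40, and 3.85 and 3.44). ETS1 read depth at the shared site was low, with 35 and 31 reads or fragments at the summit, and 8.84% of ETS1 regions had a lower pileup.

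IL2RG, which encodes the common gamma chain, carried RUNX1 at its start and both factors farther into the gene. At the start, 145 bp inside the gene, RUNX1 had 8.19 and 8.84-fold and ETS1 no peak. The second region, at chrX:71107689-71108513 and 3.59 kb into this gene of 4174 bp, had 6.67 and 9.53-fold RUNX1 and 4.68 and 4.12-fold ETS1. Its summits were nearer to an end of CXorf65 (1244 bp for RUNX1 and 1127 bp for ETS1) than to the IL2RG start. The highest ETS1 fold in the IL2RG window was 7.9 kb from its start and 241 bp from an end of CXorf65, with 10.2 and 8.45 for ETS1 and 18.6 and 20.03 for RUNX1.

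Among the kinase genes, JAK3 had the strongest start site. JAK3 pairs with the common gamma chain and is found mainly in blood cells. The region over its start, chr19:17845952-17849371, had a RUNX1 fold of 20.3 and 23.7 (22.01 ± 2.44, SD, n = 2), higher than 88.3% of RUNX1 regions. The ETS1 fold was 6.34 and 6.31 (6.33 ± 0.0224, SD, n = 2), and the midpoints of the summits lay 6 bp apart. This was the highest ETS1 fold over any of the 10 genes, and 57.8% of all ETS1 regions were lower. Inside JAK3, 2 weaker RUNX1 regions (5.45 and 3.69-fold, and 4.13 and 3.98-fold) had no ETS1.

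TYK2, the kinase of the interferon and interleukin 12 receptors, had both factors at its start at modest levels. RUNX1 was 6.47 and 7.68-fold and ETS1 4.11 and 4.88-fold, with summit midpoints 114 bp apart. The ETS1 summit itself differed between the libraries (positions 10380590 and 10380826). The fold was lower than at JAK3 in both libraries of both antibodies. Its window holds 8 more ETS1 regions, all at a start, or an end standing in for one, of other genes.

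JAK1, which serves most cytokine receptors including those for IL-7 and IL-2, had RUNX1 at an inner start only. The RefSeq table lists starts at 65067746, 64966936 and 64966549 on chromosome 1. The single region in the gene, chr1:64966008-64966942, had its summit 61 bp inside the last of these and touched the middle one. RUNX1 was 9.64 and 7.89-fold there (8.77 ± 1.24, SD, n = 2), with 208 and 162 reads or fragments at the summit. That depth is above 83.1% of RUNX1 regions, but the IgG expectation was also high, above 93.9% of them. At the outermost start no peak was called.

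PIM1 had the strongest RUNX1 region over any of the 10 genes. At chr6:37169306-37171613, with its summit 185 bp before the start, RUNX1 was 41.5 and 40.8-fold (41.2 ± 0.479, SD, n = 2), above 96.7% of all RUNX1 regions. ETS1 at the same place was weak, 4.57 and 4.71-fold, above 27.0% of ETS1 regions. Both RUNX1 libraries were higher at PIM1 than at JAK3, and both ETS1 libraries were lower. A RUNX1 region 13.1 kb past the PIM1 start (8.81 and 9.94-fold) and one 67.4 kb before it (3.804 and 3.13-fold) lay outside coding genes, without ETS1.

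SOCS1 and CISH, the feedback inhibitors, had RUNX1 without ETS1 at their starts. At SOCS1 the start region had 5.98 and 6.10-fold RUNX1, and a neighbour whose edge reached the start window 6.15 and 7.97. Its strongest regions were farther away, 22.8 kb past the start and beyond the end of the gene (19.8 and 20.9-fold, with ETS1 at 4.15 and 3.45) and 41.6 kb upstream (19.5 and 18.2-fold, no ETS1). Of the 12 RUNX1 regions around SOCS1, 10 were outside coding genes. At CISH the start region, chr3:50611273-50612685, had 8.49 and 8.25-fold RUNX1 (8.37 ± 0.171, SD, n = 2). Its summit lay 0.285 kb before the CISH start and 182 bp from a start of MAPKAPK3, so it cannot be assigned to 1 of the 2 genes. The region also covers the 4 STAT matches. The strongest RUNX1 region of the CISH window was 12.6 kb before the start, inside MAPKAPK3 (17.5 and 20.5-fold), with ETS1 at 5.63 and 6.15-fold.

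**Figure D4:**
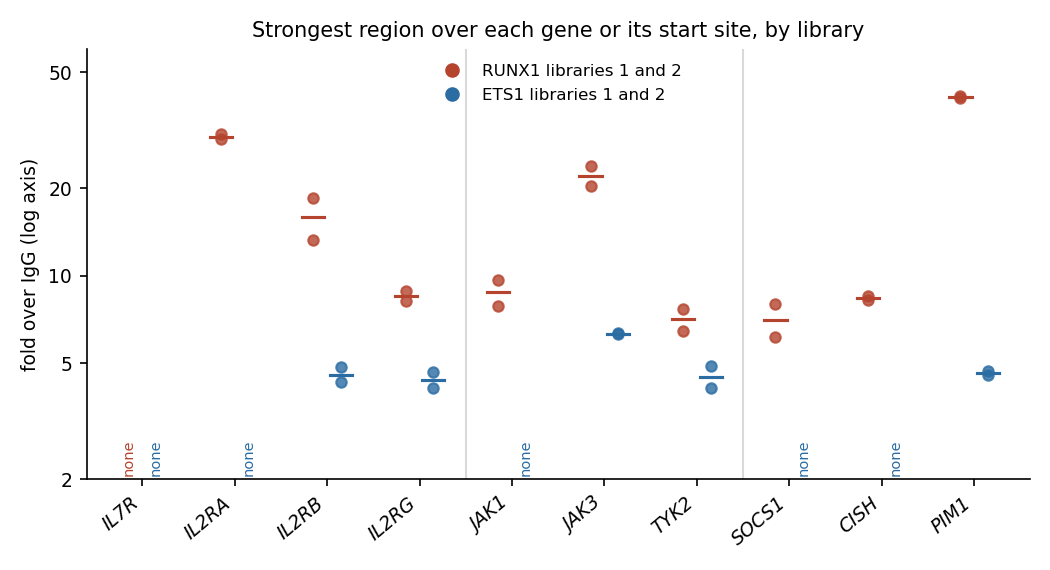
Fold over IgG (log axis) of the strongest region over each gene or within 1000 bp of its start, for RUNX1 and ETS1. Points are the 2 libraries, short lines their mean, and "none" means that no region was found. For RUNX1 the genes run from PIM1 (mean 41.2) and IL2RA (30.01) down to TYK2 (7.08) and SOCS1 (7.06), and the ETS1 means lie between 4.399 and 6.33 where a region was found.

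Ranked by the RUNX1 fold of its strongest region, the order was PIM1 (41.2), IL2RA (30.01), JAK3 (22.01), IL2RB (15.9), JAK1 (8.77), IL2RG (8.52), CISH (8.37), TYK2 (7.08) and SOCS1 (7.06), with IL7R without a region. The library values of the first 4 did not overlap, and those of the neighbours from JAK1 to SOCS1 did, apart from CISH and TYK2. Without library 1, the strongest IL2RG region was the inner one at 9.53-fold. For ETS1 the order was JAK3 (6.33), PIM1 (4.64), IL2RB (4.58), TYK2 (4.50) and IL2RG (4.399), and only JAK3 stood clear of its neighbour in both libraries. Folds of different antibodies need not be on a common scale, so each order is within 1 factor.

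All 26 ETS1 regions in the windows overlapped a RUNX1 region (100%, 95% Wilson interval 87.1 to 100), against 97.98% of all ETS1 regions. Intervals cover counting error only. Of the 91 RUNX1 regions, 25 (27.5%, 19.4 to 37.4) held an ETS1 region, against 20.6% of all. Both shares depend on the rule: they were 60% and 63.6% with equal numbers of peaks in each library, and 46.2% and 13.2% with a reciprocal overlap of 50%. At start sites the share was 51.4% (18 of 35, interval 35.6 to 67.0) against 36.2% over all regions at starts. At the starts of the 10 genes themselves it was 3 of 7. The other shared start regions were at neighbouring genes, 8 of them in the TYK2 window. Inside coding genes it was 18.5% (5 of 27) against 11.4%, and outside them 6.90% (2 of 29) against 12.1%. By class, RUNX1 regions held ETS1 in 8 of 32 cases for receptors (25%, 13.3 to 42.1), 13 of 36 for kinases (36.1%, 22.5 to 52.4) and 4 of 23 for feedback genes (17.4%, 6.98 to 37.1), and these intervals overlap.

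RUNX1 regions with ETS1 had the higher RUNX1 fold, a median of 19.0 against 7.56 without, in the windows, and 14.8 against 7.22 over all regions. In the 26 shared cases the median distance between an ETS1 and a RUNX1 summit was 58.5 bp, against 57 bp over all 4953. The RUNX1 fold exceeded the ETS1 fold in all but 1 of the 26, the region at an end of RAVER1 in the TYK2 window. There ETS1 was 26.7 and 26.7-fold, above 99.0% of ETS1 regions, and RUNX1 15.3 and 15.5-fold. Over all shared ETS1 regions 5.92% had the higher ETS1 fold.

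**Figure D5:**
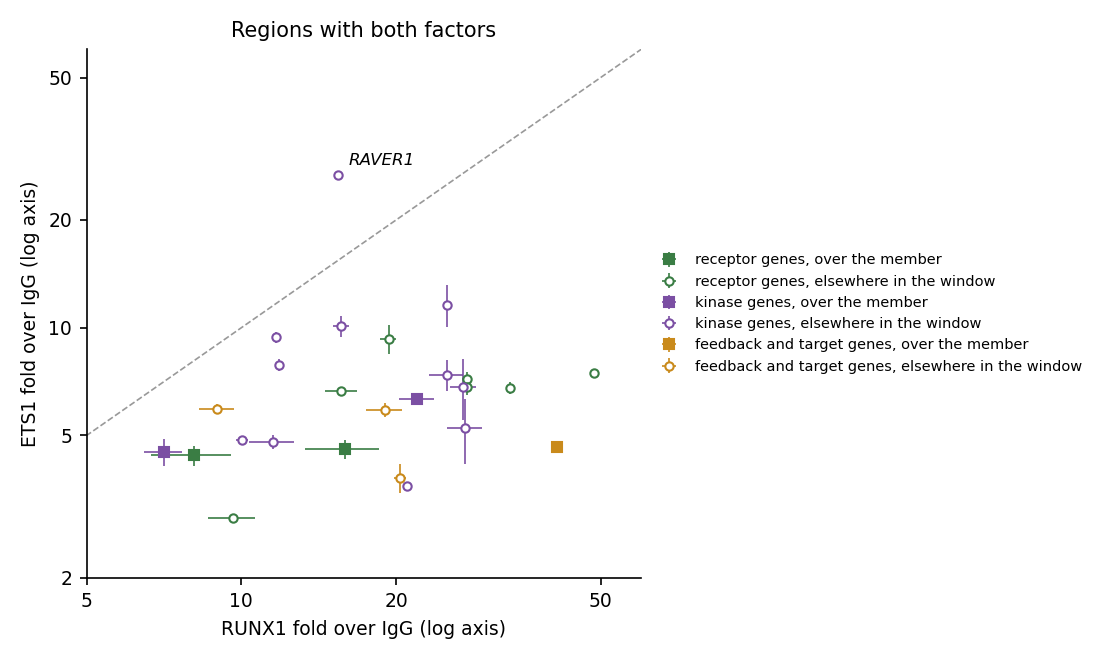
ETS1 fold against RUNX1 fold over IgG (both on log axes) for the 26 ETS1 regions in the windows and the RUNX1 region each overlaps, with bars from the lower to the higher library. The dashed line marks equal folds, which need not mean equal occupancy, and only the region near RAVER1 lies above it. Filled squares are regions over the 10 genes, whose ETS1 folds lie between 4.399 and 6.33. The 2 ETS1 regions at RAC2 in the IL2RB window that share 1 RUNX1 region appear at the same RUNX1 value.

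At the starts with RUNX1 alone, the files say only that no ETS1 peak was called. MACS derives the fold and p from the pileup and the IgG expectation, so both could be solved for from the deposited values. The IgG expectation of an ETS1 library was 0.849 (library 1) and 0.817 (library 2) times that of the RUNX1 library of the same number (medians over 466 and 437 shared summit bases). This takes 1 IgG library, scaled to each library, as the control, which the labels do not state. Under that assumption, an ETS1 fold of 3.67 and 3.78 would have been needed for a call at the IL2RG start, 2.48 and 2.58 at JAK1, 3.01 and 3.21 at SOCS1 and 2.66 and 2.74 at CISH. The fold limits at JAK1 and CISH were below the folds of all 26 ETS1 regions in the windows, which had themselves passed calling. In reads or fragments at the summit, however, 45 and 43 were needed at JAK1 and 39 and 37 at CISH. The ETS1 regions at TYK2 (32 and 30) and IL2RB (35 and 31) had fewer than either, and that at JAK3 (61 and 56) had more. Those at IL2RG (42 and 34) and PIM1 (41 and 34) had fewer than JAK1 needed. Judged by depth, ETS1 could thus go uncalled at JAK1 and CISH too. At SOCS1, 1 of the 26 was below the limit in each library (SNX12, 2.93 and 2.94-fold), and at IL2RG 1 was in library 1 and 3 in library 2, so ETS1 of a strength seen elsewhere in the windows could go uncalled there. At the strong inner IL2RA region the needed fold was 4.21 and 4.27, with 5 and 4 of the 26 below it. How often ETS1 accompanies a comparable RUNX1 region depended on what was matched. Among all RUNX1 regions at start sites in the same decile of RUNX1 fold, ETS1 was present at 39.8% (341 of 857, the group of IL2RG, JAK1 and CISH) and 23.7% (207 of 873, that of SOCS1). In the same decile of RUNX1 pileup the shares were 61.2% for JAK1, 50.6% for CISH, 19.4% for SOCS1 and 14.6% for IL2RG. For the inner IL2RA region, among regions away from starts, they were 44.04% by fold and 19.7% by pileup.

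Other genes of the pathway were counted by the same rule. Of 35 genes in 7 lists, 25 had RUNX1 at a start and 8 ETS1, each of the 8 with RUNX1 as well. Over all coding genes the shares for RUNX1 and ETS1 were 47.2% and 19.0%. Of the 35 genes 11 have no listed start and were read at their ends, and among the 24 with one the counts were 17 and 8. Over all coding genes with a listed start the shares were 48.9% and 20.3%. The single lists are small and are given as counts only. RUNX1 was at 6 of 7 STAT genes, ETS1 at 4. STAT5A, which carries the IL-7 and IL-2 signal to the nucleus, had both (RUNX1 9.26 and 10.7-fold, ETS1 6.42 and 7.87-fold), and its close relative STAT5B had RUNX1 alone (12.02 and 11.2-fold). Of the other 6 SOCS genes, which encode inhibitors like SOCS1, 5 had RUNX1 and 0 ETS1. All 3 of JAK2, PIM2 and PIM3 had RUNX1, and PIM3 also had ETS1 (8.24 and 7.93-fold). Among 6 phosphatases and adaptors of cytokine signalling, RUNX1 was at 5 and ETS1 at 2, namely PTPN6 (4.63 and 5.20-fold) and SH2B3 (4.25 and 4.57-fold). The survival and cycle genes BCL2, BCL2L1, MCL1 and CCND2 all had RUNX1, and BCL2L1 also ETS1. Other receptors of the family had RUNX1 at 2 of 5 starts and ETS1 at 0, and CRLF2 among them has no listed start. The ligand genes IL2 and TSLP had neither factor at a listed start, and IL7 and IL15, with none listed, had neither at a gene end. Of the 7 receptor genes with a listed start, IL2RB and CRLF2 being left out, 3 had RUNX1 there (IL2RG, IL9R and IL21R) and 0 had ETS1, beside 48.9% and 20.3% of all coding genes with a listed start. IL2RB, with both factors in a region inside the gene, could not be placed in this count.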

How the data were processed

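Each library was deposited as a peak list on hg38. Per the submitters' processing notes, bcl2fastq 2.17, Bowtie2 and MACS3 3.0.0a6 were used, and the peak names in the files say that calls were made against IgG, 1 library at a time. No call threshold, duplicate rule or mapping filter is stated there. The lists give the authors' fold over IgG (a ratio), −log10 p and −log10 q (lowest 5.00 to 5.03), a summit position, and a deposited score that was not used. Total read counts are unknown.

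The 10 genes, the lists and the motifs were chosen with earlier results of these data known. Named genes were these members, the fixed pathway and lineage lists, and genes nearest to a summit in a window. Gene bounds and start sites came from RefSeq tables of GRCh38.p14. Of 19821 coding genes (153 on scaffolds were left out), 15812 had a listed start, among them 9 of the 10 members; for the others both gene ends stood in, so a 3′ end can count. Pileup and IgG expectation were solved from fold and −log10 p within 0.01 in 100% of peaks (the median difference in −log10 p was 2.71e-05 to 3.65e-05). Overlap meant at least 1 bp. The detection limits, the counts of ETS1 regions below them, the shares by decile of fold or pileup and the counts over listed starts only were added after the data were seen. Code was tested on simulated data; Python 3.11.15, numpy 2.4.6, pandas 2.3.3 and scipy 1.17.1 were used.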

Additional observations from a re-analysis of the deposited data

How the results depend on the processing

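With each library reduced to its 5611 strongest peaks, the ratio of RUNX1 to ETS1 peaks in the windows reversed to 0.825, ETS1 regions with RUNX1 fell to 60% (15 of 25), RUNX1 regions with ETS1 rose to 63.6% (14 of 22), and 2 genes instead of 7 had RUNX1 at a start. With a reciprocal overlap of 50% the 2 shares were 46.2% and 13.2%, and for summits within 100 bp 61.5% and 17.6%. With −log10 q of at least 20, RUNX1 regions with ETS1 came to 16.9% (11 of 65), the ratio of peaks to 5.04, and ETS1 was at 1 start instead of 3. Leaving out 1 library of an antibody gave ratios of 3.10 to 3.43, and leaving out library 1 or 2 of both antibodies gave RUNX1 shares of 28.4% to 28.9% and ETS1 shares of 96.8% to 100%. With a replicate block the ratio of 3.25 and the difference of 26.4 percentage points stood as they were, with an exact permutation p of 0.5, the smallest that 2 pairs allow; only a shared number pairs the libraries. With windows of 10 kb, 9 genes had RUNX1, 5 had ETS1, and 6 of 6 ETS1 regions overlapped RUNX1. Without library 1 the strongest RUNX1 region of IL2RG was 9.53-fold. Summit depth (medians of 51 to 75) limits what can be said of a missing ETS1 peak.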

Other observations

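The neighbours of the 10 genes carried the strongest regions of several windows. In the IL2RB window, RUNX1 reached 48.6 and 48.3-fold inside SSTR3, with ETS1 at 7.52 and 7.42 and summits 2 bp apart. RAC2, which encodes a GTPase of blood cells, had RUNX1 regions of 33.1 and 33.4-fold inside the gene and 26.9 and 28.0-fold at its upper-coordinate end, both with ETS1. In the TYK2 window, RUNX1 regions lay at starts of ICAM1, ICAM3, ICAM4 and ICAM5, which encode adhesion molecules, and each of these genes also had an ETS1 region at a start (4.15 and 6.32-fold at ICAM1, 8.12 and 6.66 at ICAM4). CDC37, which encodes a chaperone partner for kinases, had 9.41 and 10.8-fold ETS1 and 16.2 and 15.1-fold RUNX1. In the IL2RA window, RUNX1 regions lay at the start of PFKFB3, a regulator of glycolysis (10.8 and 8.72-fold), and 4126 bp before it (16.7 and 19.1-fold), without ETS1.

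ETS1 library 1 had 5 peaks in the windows without a counterpart in library 2, and library 2 had 2 without one in library 1. They include a peak of 6.30-fold at the start of FOXO4 in the IL2RG window and one of 3.14-fold 30.8 kb from the SOCS1 start, and 6 of these 7 lay in RUNX1 regions. For RUNX1 the numbers were 3 and 1, among them a peak of 4.53-fold at the start of MED12 in library 1.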
